A study of Vitis riparia with 12 samples.

Results

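Root tips were compared with shoot tips of V. riparia vines that had been watered throughout, so the comparison concerned the organs themselves and not the response to water deficit. It used 6 of the 12 libraries of the study, 3 of C root and 3 of C shoot, in which C stands for the well-watered control, and these libraries were chosen by their labels for tissue and water condition. The vines were mature, spur-pruned and potted, had their roots pruned when they were repotted, grew in a greenhouse under a long photoperiod, and were sampled on day 14, with 3 vines in each replicate. The remaining 6 libraries came from vines of the same kind that received no water (WD), and they served here as a repeat of the organ comparison that shares no library with it. All vines were of a single species from a single germplasm accession, each library was made from total RNA of a whole tip with many cell types, and fewer cells of a type and less RNA per cell cannot be told apart in such samples. Root RNA was extracted with a column kit and shoot RNA by another published method, so organ and extraction method cannot be told apart. The sources also describe the root material as whole root tissue and as root tips, and give its length differently in different places. The labels do not say that libraries of the same replicate number came from the same vines, and p-values measure only the spread between these samples.

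A root tip holds a meristem, elongating cells and the first absorbing tissue, takes up water and mineral ions, and seals its inner layers with suberin and lignin. A shoot tip holds the apical meristem with young leaves and internodes, builds chloroplasts as its leaves unfold, and covers its surface with cutin and waxes. Both organs divide and expand cells, so histones, cell wall enzymes and hormone signaling genes are at work in each, often through different members of the same family.

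The raw counts gave between 15889557 and 21348097 reads on genes in the C root libraries and between 23886092 and 27769527 in the C shoot libraries. Reads that aligned more than once were not counted, and they were 14.6 to 16.5% of the reads in C root and 9.51 to 10.1% in C shoot, so members of near-identical families can be undercounted, more so in root. Log2 levels correlated at r = 0.968 to 0.987 across genes between pairs of C root libraries, 0.957 to 0.98 between pairs of C shoot libraries, and 0.616 to 0.69 between a root and a shoot library, with genes not being independent replicates. Levels are given as CPM, counts per 1000000 reads on genes, scaled by TMM over the 6 libraries, in the order of replicates 1, 2 and 3, and fold changes (log2FC) are C root over C shoot. Of 29966 gene models, 20536 passed the filter on low counts, and edgeR's quasi-likelihood test called 11521 of them different at a Benjamini-Hochberg adjusted p under 0.05, which is 56.1%. C root had the higher level for 5495 of them (26.8% of the tested genes) and C shoot for 6026 (29.3%), and 9015 genes were not called. Which organ had more calls depended on the scaling: upper-quartile scaling gave 6275 genes higher in C root and 5296 in C shoot, total counts gave 5961 in C root and 5215 in C shoot, and limma on log2(RPKM + 1) gave 5821 in C root and 5076 in C shoot. The 3 libraries of an organ did not overlap with those of the other for 67.9% of the tested genes. A change of at least 2-fold was found together with the call for 3709 genes higher in C root (18.1%) and 4514 genes higher in C shoot (22.0%). The median log2FC over all tested genes was -0.02 and the median absolute log2FC was 0.81. Scaling by upper quartiles or by total counts moved this median to 0.12 and 0.10, and some calls with a log2FC near -1 were lost under them, as given below for PIP2;4 and a histone H3. Each of the chromosomes contributed calls, with 23.8 to 30.5% of the tested genes of a chromosome higher in C root and 26.6 to 33.0% higher in C shoot.

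**Figure D1:**
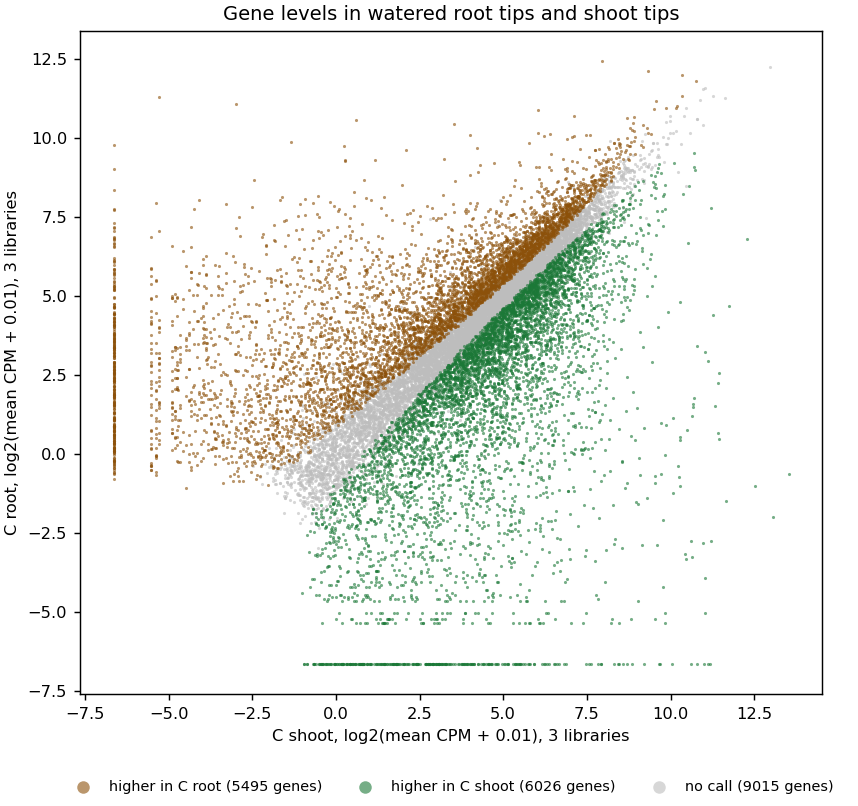
Each point is 1 of 20536 tested genes, with its mean CPM over 3 C shoot libraries on the x axis and over 3 C root libraries on the y axis, both as log2 after adding 0.01 CPM. Brown points are the 5495 genes called higher in C root, green points the 6026 called higher in C shoot and grey points the 9015 genes not called. The leftmost column and the lowest line of points are genes with no read in all C shoot libraries (284 genes) or all C root libraries (293 genes).

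Functions were read from the annotation held for genes that were selected for a difference between WD and C in root or in shoot. It covered 2946 genes, of which 2738 were tested here. These genes were selected on the C libraries and are not a neutral sample: 65.9% of them were called, 29.8% higher in C root and 36.1% higher in C shoot. The table for shoot was held in part, so genes found in the root table alone can also have differed between WD and C in shoot. Of the genes found in the root table alone, 70.8% were called, 43.0% higher in C root and 27.8% higher in C shoot. Of those found in the held part of the shoot table alone, 64.4% were called, 24.7% higher in C root and 39.8% higher in C shoot, and of those found in both, 60.2% were called, 18.8% higher in C root and 41.4% higher in C shoot. The shares of each list below stand beside these as well as beside those of all tested genes.

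Photosynthesis had the largest absolute median difference of the 26 gene lists. All 13 nuclear-type genes of photosystems, antenna, cytochrome b6f complex, electron transfer and Rubisco activation were higher in C shoot. Of all tested genes, 29.3% were higher in C shoot. The 13 genes had a median log2FC of -10.45, or -9.75 with the gene at 0 in root taken at its bound. Their summed level was 23.0, 25.1 and 24.3 CPM in C root, against 17320, 8141 and 12340 CPM in C shoot. The root libraries held a trace of these transcripts, and of the shoot libraries replicate 1 was the highest and replicate 2 the lowest. LHB1B1 (VIT_12s0028g00320), an antenna protein that binds chlorophyll around photosystem II, had 0.101, 1.29 and 2.75 CPM in C root, against 3515, 1915 and 3007 CPM in C shoot (log2FC = -11.02, SE = 1.02, adjusted p = 0.000278). The photosystem I subunit PSAF (VIT_00s0125g00280) had 3.58, 3.46 and 1.9 CPM in C root, against 2268, 976 and 1622 CPM in C shoot (log2FC = -9.08, SE = 0.52, adjusted p = 7.19e-05). PsbO (VIT_00s0207g00210), which holds the water-splitting cluster in place, had 9.48, 2.67 and 2.14 CPM in C root, against 3804, 1767 and 2643 CPM in C shoot (log2FC = -9.16). In each of these genes every C root library lay far below every C shoot library. PETC (VIT_19s0014g03850), the iron-sulfur protein of the cytochrome b6f complex, had 1 read in all of C root and 469, 164 and 256 CPM in C shoot (ratio 16500, 2962 to 651800 shoot over root, as a 95% counting interval). Its annotation is shared by 3 genes, and the other PETC genes had a log2FC of -10.45 (VIT_03s0017g00940) and -4.78 (VIT_12s0134g00510). PETH (VIT_04s0023g03510), which passes electrons from ferredoxin to NADP, had 0.252, 0 and 0.122 CPM in C root, against 851, 325 and 538 CPM in C shoot (log2FC = -12.15, SE = 0.78, adjusted p = 8.66e-05). The smallest differences of the list were those of the third PETC gene and of ELIP1 (VIT_05s0020g04110), a protein made when tissue first meets light, which had 0.403, 7.64 and 11.5 CPM in C root, against 219, 313 and 174 CPM in C shoot.

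Gene models for proteins normally encoded in the plastid also lie on the nuclear assembly, where their reads can come from plastid transcripts, so their counts are uncertain. Of 12 such models 7 passed the filter, and all 7 were higher in C shoot, beside 29.3% of all tested genes. The median log2FC of the 7 was -3.60. PsbA (VIT_13s0019g02630), a core protein of photosystem II, had 2.57, 4.22 and 3 CPM in C root, against 104, 14.4 and 69.2 CPM in C shoot (log2FC = -4.25). Replicate 2 was the lowest of the shoot libraries for this model and for the list as a whole, which summed to 5.75, 7.37 and 4.40 CPM in C root, against 157.8, 23.1 and 102.9 CPM in C shoot.

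Of the Calvin cycle, which fixes carbon with the products of the light reactions, 3 enzymes had at most 1 read in all of C root. Phosphoribulokinase (VIT_02s0109g00080), which makes the acceptor of CO2, had no read in any C root library and 1350, 448 and 620.0 CPM in C shoot, at least 5165-fold lower in C root with 3 counts per library taken as the floor (adjusted p = 0.000398). Sedoheptulose-1,7-bisphosphatase (VIT_13s0019g03350), which drives the regeneration of that acceptor, had 1 read in all of C root and 1228, 422 and 595 CPM in C shoot (ratio 41640, 7474 to 1645000). The chloroplast fructose-bisphosphate aldolase (VIT_04s0023g03010) likewise had 1 read in C root and 1459, 436 and 821 CPM in C shoot (ratio 50130, 8997 to 1980000). For these 3 genes replicate 1 was the highest of the C shoot libraries and replicate 2 the lowest. Over the whole list for carbon fixation and its related enzymes, 4 of 15 genes were higher in C root (26.7%) and 9 in C shoot (60%). The remaining 2 were not called. The shares of all tested genes were 26.8% and 29.3%, so the root share was near that of all genes. The 4 listed genes higher in C root were enzymes of glycolysis and of malate and amino acid metabolism and not of the cycle itself. A pyruvate kinase (VIT_10s0071g01060), the last step of glycolysis, had 129, 136 and 184 CPM in C root, against 11.6, 22.5 and 12.9 CPM in C shoot (log2FC = 3.25, SE = 0.31, adjusted p = 0.000309), and a chloroplast-type pyruvate kinase (VIT_03s0088g00410) had 103, 132 and 76.95 CPM in C root, against 35.6, 25.8 and 35.3 CPM in C shoot (log2FC = 1.69). Genes annotated as plastocyanin domain proteins were higher in C root for 0 of 4 tested genes and higher in C shoot for 3. The first of them (VIT_19s0014g02460) had 6.45, 10.2 and 4.28 CPM in C root, against 49.6, 41.8 and 24.3 CPM in C shoot (log2FC = -2.46, SE = 0.40, adjusted p = 0.00245), without overlap. Another (VIT_11s0037g00290) had 29.6, 42.9 and 6.67 CPM in C root, against 172, 89.2 and 82.7 CPM in C shoot (log2FC = -2.11, adjusted p = 0.0306). Without C root replicate 1 or without C shoot replicate 1, 1 gene of this list was called higher in C shoot, and the log2FC of the second gene was -2.18 (adjusted p = 0.0812) and -1.70 (adjusted p = 0.0751).

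In the list for chlorophyll and heme, 1 of 8 tested genes was higher in C root (12.5%) and 6 were higher in C shoot (75%). The shares of all tested genes were 26.8% and 29.3%. NADPH:protochlorophyllide oxidoreductase (POR, VIT_19s0014g03160), the light-dependent step towards chlorophyll, had 0.706, 0.222 and 0.183 CPM in C root, against 548, 455 and 871 CPM in C shoot (log2FC = -10.68, SE = 0.59, adjusted p = 6.41e-05). Magnesium-protoporphyrin O-methyltransferase (VIT_17s0000g00280), an earlier step, had 2.37, 2.84 and 2.08 CPM in C root, against 175, 75.2 and 142 CPM in C shoot (log2FC = -5.74). Genes of chlorophyll breakdown lay on the same side, with a log2FC of -3.66 for chlorophyllase CLH2 (VIT_05s0020g04040) and -3.62 for pheophorbide a oxygenase (VIT_06s0061g00790). The gene higher in root was a non-symbiotic hemoglobin (VIT_03s0063g01970), an oxygen-binding protein outside photosynthesis, which had 76.4, 73.5 and 38.2 CPM in C root, against 9.95, 8.21 and 7.09 CPM in C shoot (log2FC = 2.90, SE = 0.31, adjusted p = 0.000463).

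**Figure D2:**
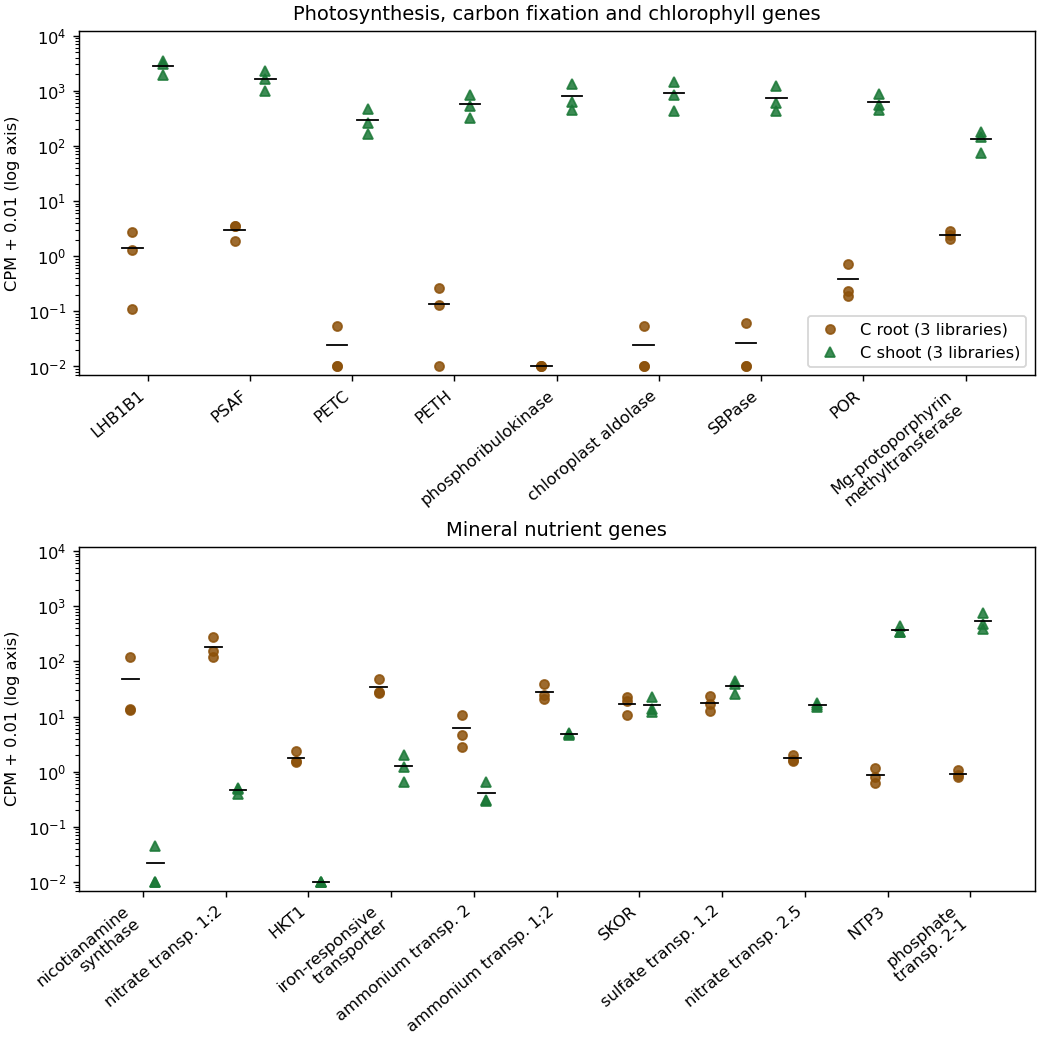
Levels in CPM, with 0.01 CPM added, on a log axis for genes of photosynthesis, carbon fixation and chlorophyll synthesis (upper panel) and of mineral nutrition (lower panel). Brown circles are the 3 C root libraries, green triangles the 3 C shoot libraries and black lines their means. The genes of the upper panel are separated without overlap, with root below 10 CPM in every library, whereas the genes of the lower panel run from nicotianamine synthase, higher in C root, through SKOR, which was not called, to the phosphate transporter 2-1, higher in C shoot.

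Genes of ion uptake gave a mixed answer when they were used to check the root label. Ammonium transporters, which bring nitrogen into root cells, were higher in C root for 3 of 4 genes: AMT1;2 (VIT_04s0043g00370) had 24.3, 38.4 and 21.1 CPM in C root, against 4.71, 5.09 and 4.81 CPM in C shoot (log2FC = 2.52, SE = 0.26, adjusted p = 0.000426), and an ammonium transporter 2 (VIT_04s0008g05080) had 2.77, 4.58 and 10.9 CPM in C root, against 0.285, 0.631 and 0.295 CPM in C shoot (log2FC = 3.86). Another ammonium transporter 2 (VIT_08s0058g00140) was also higher in C root (adjusted p = 0.0294), and the remaining one (VIT_07s0031g02950) was not called (log2FC = -0.46, adjusted p = 0.58). The potassium channel SKOR (VIT_14s0006g00100), which in Arabidopsis loads potassium into root xylem, had 18.9, 22.2 and 10.5 CPM in C root and 22.2, 11.9 and 13.8 CPM in C shoot (log2FC = 0.11, adjusted p = 0.805), and nitrate transporter 3.1 (VIT_17s0000g09470) was likewise not called (log2FC = 0.34, adjusted p = 0.622). Other carriers known for uptake lay on the shoot side. Nitrate transporter 2.5 (VIT_14s0066g00850), a high-affinity carrier, had 1.56, 2.04 and 1.59 CPM in C root, against 17.7, 14.9 and 16.2 CPM in C shoot (log2FC = -3.22), and sulfate transporter 1.2 (VIT_18s0001g04910), a root uptake carrier in Arabidopsis, had 23.6, 16.9 and 12.8 CPM in C root, against 25.2, 43.8 and 39.3 CPM in C shoot (log2FC = -1.02, adjusted p = 0.0254). Neighbouring genes annotated as phosphate transporter 1-4 were split, with a log2FC of 2.39 (VIT_05s0049g00930) and -0.53 (VIT_05s0049g00940). Of the peroxidases described below, by contrast, 16 of 21 were on the root side.

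Across all 32 tested genes of nutrient transport and metal handling, 11 were higher in C root, 12 were higher in C shoot and 9 were not called. The median log2FC was -0.02, the same as over all genes. The shares, 34.4% and 37.5%, were near the 29.8% and 36.1% of all annotated genes, and nothing is read from them about the list. The extremes were wide. Nicotianamine synthase (VIT_11s0052g01150), which makes a chelator that moves iron and other metals, had 13.5, 120.4 and 13.03 CPM in C root, with replicate 2 well above the others, and 1 read in all of C shoot (ratio 3980, 714 to 157200 root over shoot). A nitrate transporter 1:2 (VIT_18s0001g11280) had 156, 281 and 119 CPM in C root, against 0.476, 0.491 and 0.38 CPM in C shoot (log2FC = 8.67, SE = 0.46, adjusted p = 6.01e-05). The iron-responsive transporter (VIT_08s0058g00740) had 28.2, 47.2 and 26.2 CPM in C root, against 2, 0.631 and 1.22 CPM in C shoot (log2FC = 4.74), and the sodium and potassium carrier HKT1 (VIT_11s0103g00130) had 1.51, 2.35 and 1.53 CPM in C root and no read in C shoot, at least 14.4-fold higher in C root. On the shoot side, the nitrate transporter NTP3 (VIT_12s0059g01240) had 1.16, 0.8 and 0.612 CPM in C root, against 346, 434 and 347 CPM in C shoot (log2FC = -8.76, SE = 0.29, adjusted p = 3.1e-05). The chloroplast phosphate transporter 2-1 (VIT_00s0291g00060) had 0.857, 1.07 and 0.795 CPM in C root, against 742, 389 and 478 CPM in C shoot (log2FC = -9.19, SE = 0.38, adjusted p = 3.81e-05), and AKT2/3 (VIT_12s0034g02240), a potassium channel of phloem in Arabidopsis, had 10.6, 9.46 and 5.08 CPM in C root, against 155, 124 and 156 CPM in C shoot (log2FC = -4.11). The metal-nicotianamine transporter YSL1 (VIT_02s0025g02500) was also higher in C shoot (log2FC = -4.77), opposite to the synthase of its substrate. The metal transporter Nramp6 (VIT_18s0001g02120), which no list held, had 4.18, 281 and 55.6 CPM in C root and no read in C shoot, at least 909-fold higher in C root. Its root libraries spread over a wide range, and limma on log2(RPKM + 1) gave it a log2FC of 2.51 with an adjusted p of 0.0707.

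Class III peroxidases, secreted enzymes that couple phenolics into lignin and suberin, had the largest share of genes on the root side among the lists. Of 21 tested genes 16 were higher in C root and 1 was higher in C shoot, beside 26.8% and 29.3% of all genes, and 20 of the 22 listed genes were found in the root table alone, where 43.0% of genes were higher in C root and 27.8% in C shoot. The median log2FC was 5.41, or 4.33 with genes at 0 taken at their bound. The list summed to 1033, 1211 and 752 CPM in C root, against 114.2, 208.0 and 151.7 CPM in C shoot. A peroxidase (VIT_06s0004g01240) had 119, 273 and 33.1 CPM in C root and no read in C shoot, at least 1133-fold higher in C root (adjusted p = 0.00245), and Peroxidase ATP14a (VIT_06s0080g00690) had 13.2, 15.9 and 5.69 CPM in C root and no read in C shoot, at least 92.9-fold higher. Peroxidase ATP2a (VIT_08s0040g02200) had 112, 199 and 50.8 CPM in C root, against 1.71, 0.807 and 1.44 CPM in C shoot (log2FC = 6.53). The single member on the shoot side was Peroxidase 17 (VIT_07s0191g00050), which had 6.7, 7.11 and 3.42 CPM in C root, against 15.2, 20.7 and 20.7 CPM in C shoot (log2FC = -1.71, SE = 0.31, adjusted p = 0.00385). Several of these peroxidases are close neighbours, for example VIT_12s0055g01010, VIT_12s0055g01020 and VIT_12s0055g01030 on chromosome 12 with log2FCs of 6.44, 6.59 and 5.41, and reads shared by such copies were not counted.

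Phenylpropanoid genes, which supply the phenolics, had 16 of 26 higher in C root (61.5%) and 7 higher in C shoot (26.9%). The shares of all tested genes were 26.8% and 29.3%, so the shoot share was near that of all genes. The median log2FC of the list was 1.54. Phenylalanine ammonia-lyase (VIT_06s0004g02620), the entry step, had a log2FC of 1.02, and cinnamate 4-hydroxylase (VIT_11s0078g00290), the next one, had 25.3, 55.8 and 14.6 CPM in C root, against 0.0476, 1.33 and 0 CPM in C shoot (log2FC = 5.99, SE = 1.19, adjusted p = 0.00553). A cinnamyl alcohol dehydrogenase (VIT_07s0129g01030), which makes lignin monomers, had 341, 340.2 and 177 CPM in C root, against 0.333, 1.23 and 0.464 CPM in C shoot (log2FC = 8.66, SE = 0.58, adjusted p = 0.000101). The branch enzyme hydroxycinnamoyl-CoA shikimate/quinate hydroxycinnamoyltransferase was divided between the organs by gene. A copy on chromosome 12 (VIT_12s0134g00580) had 6.8, 9.33 and 13.2 CPM in C root and no read in C shoot, at least 78.3-fold higher in C root. Those on chromosome 11 (VIT_11s0037g00440, 0.806, 0.666 and 0.306 CPM in C root, against 53.01, 15.6 and 18.4 CPM in C shoot) and elsewhere on chromosome 12 (VIT_12s0057g00930, no read in C root and 1.09, 7.02 and 2.45 CPM in C shoot) were higher in C shoot. Secoisolariciresinol dehydrogenases, which make lignans, were divided likewise: 4 neighbours on chromosome 8 were higher in C root, led by VIT_08s0007g02640 with 19.6, 14.04 and 27.9 CPM in C root and 2 reads in C shoot (ratio 723, 199.8 to 5980), and VIT_06s0080g00980 on chromosome 6 was higher in C shoot, with 1.76, 3.29 and 0.489 CPM in C root, against 6.28, 34.9 and 13.8 CPM in C shoot (log2FC = -3.28, and an adjusted p of 0.0561 without C root replicate 1).

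The list for cutin, suberin and wax ran the other way, with 3 of 16 genes higher in C root (18.75%) and 10 in C shoot (62.5%). The shares of all tested genes were 26.8% and 29.3%. The list had a median log2FC of -2.51. Of its 16 genes, 12 were found in the held part of the shoot table, alone or with the root table. Its root members included CYP86A1 (VIT_06s0004g06210), which in Arabidopsis makes the omega-hydroxy fatty acids of root suberin and which had 116, 193 and 54.7 CPM in C root, against 0.381, 0.491 and 0.211 CPM in C shoot (log2FC = 8.35, SE = 0.65, adjusted p = 0.000158), and a beta-ketoacyl-CoA synthase (VIT_14s0068g01430), an enzyme that lengthens fatty acids, with 145, 169 and 92.6 CPM in C root, against 16.4, 21.3 and 15.4 CPM in C shoot (log2FC = 2.94). Among the shoot members were both genes annotated as CYP86A2, a cutin enzyme in Arabidopsis. VIT_02s0025g03320 had 3.23, 6.57 and 6.48 CPM in C root, against 744, 218 and 289.6 CPM in C shoot (log2FC = -6.26, SE = 0.63, adjusted p = 0.000377) and VIT_07s0031g01660 had 1.06, 0.977 and 0.979 CPM in C root, against 30.98, 24.1 and 31.2 CPM in C shoot (log2FC = -4.83). A wax synthase (VIT_15s0046g00480) and CER1 (VIT_15s0021g00050), which makes wax alkanes, had log2FCs of -7.51 and -4.32. A second gene annotated as CYP86A1 (VIT_15s0048g01700) did not follow the first and was higher in C shoot, with a log2FC of -3.66. Lipid transfer proteins, which carry lipids to the surface, were higher in C root for 4 of 8 tested genes (50%) and higher in C shoot for 2 (25%). A non-specific lipid-transfer protein outside that list (VIT_08s0058g01230) had 1 read in C root and 358, 546 and 452 CPM in C shoot (ratio 27090, 4863 to 1070000).

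**Figure D3:**
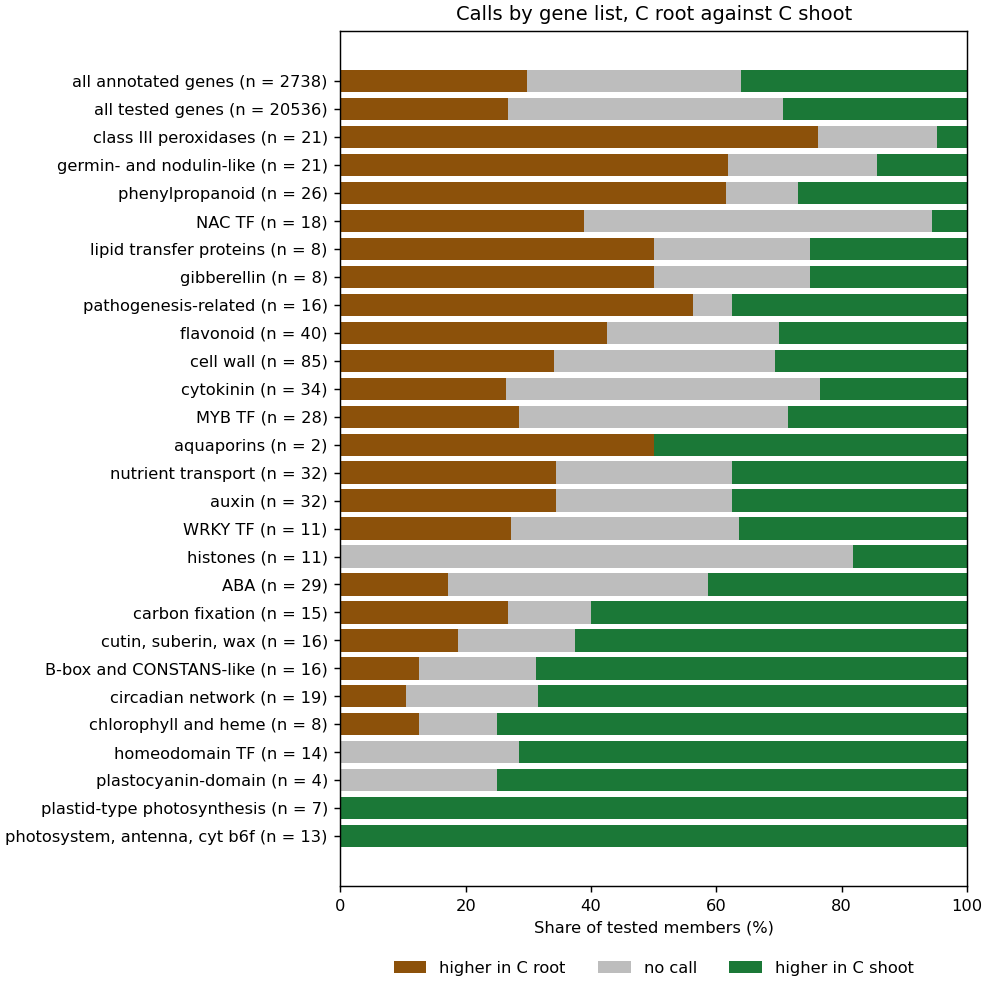
Share of the tested members of each gene list that was higher in C root (brown), not called (grey) or higher in C shoot (green). All tested genes and all annotated genes are shown for comparison. Class III peroxidases had 16 of 21 members higher in C root, and the 13 nuclear-type photosynthesis genes were all higher in C shoot.

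Light and clock genes were mostly on the shoot side. B-box and CONSTANS-like zinc finger proteins had 2 of 16 genes higher in C root (12.5%) and 11 in C shoot (68.75%), with a median log2FC of -2.26. The circadian list, which shares 7 members with that list, had 2 of 19 higher in C root (10.5%) and 13 in C shoot (68.4%). Its median log2FC was -1.21. The shares of all tested genes were 26.8% and 29.3%. Of 17 and 20 listed members, 14 in each list were found in the held part of the shoot table, alone or with the root table. In those 2 sets of annotated genes, 39.8% and 41.4% were higher in C shoot. The gene annotated as CO (VIT_14s0083g00640), a regulator that ties flowering to day length in Arabidopsis, had 0.806, 0.844 and 0.367 CPM in C root, against 416, 206 and 253 CPM in C shoot (log2FC = -8.72, SE = 0.46, adjusted p = 5.84e-05). Cryptochrome 1 (VIT_18s0001g05680), a blue light receptor, had 1.76, 2.18 and 2.14 CPM in C root, against 286, 202 and 216 CPM in C shoot (log2FC = -6.85, SE = 0.23, adjusted p = 3.1e-05). PIF3 (VIT_14s0060g00260), which binds phytochrome, had 7.81, 8.53 and 5.08 CPM in C root, against 140.5, 131 and 109.5 CPM in C shoot (log2FC = -4.15). On the root side were Salt tolerance homolog2 (VIT_03s0038g00340), a B-box protein with 12.7, 10.9 and 13.2 CPM in C root, against 0.285, 0.456 and 0.0844 CPM in C shoot (log2FC = 5.42, SE = 0.47, adjusted p = 0.000228), Constans-like 14 (VIT_01s0146g00360, log2FC = 1.38) and GIGANTEA (VIT_18s0157g00020), a clock protein with 144, 239 and 196 CPM in C root, against 51.8, 124 and 94.7 CPM in C shoot (log2FC = 1.09), whose call was lost without C root replicate 2, C root replicate 3 or C shoot replicate 3, at log2FCs of 0.92, 1.08 and 1.12. The core clock gene Timing of CAB expression 1 (VIT_17s0000g06570) differed by a log2FC of -0.90 (adjusted p = 0.00102). The study describes root and shoot tips as excised at the same time, but the hour was not given in the sources used here. The part of the hour in the levels of clock genes was not tested.

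Among transcription factors, 0 of 14 homeodomain genes were higher in C root and 10 were higher in C shoot (71.4%). The shares of all tested genes were 26.8% and 29.3%. Of the 14 genes, 11 were found in the held part of the shoot table, alone or with the root table. In those 2 sets of annotated genes, 39.8% and 41.4% were higher in C shoot. HB-12 (VIT_16s0098g01170), a homeodomain-leucine zipper protein, had no read in C root and 23.9, 33.7 and 14.6 CPM in C shoot, at least 154-fold lower in C root (adjusted p = 0.000458). A BLH1 gene (VIT_06s0009g00410) had 5.9, 9.6 and 2.75 CPM in C root, against 157, 182 and 147 CPM in C shoot (log2FC = -4.72), and KNAT6 (VIT_01s0127g00210), a knotted-type gene active at the shoot meristem in Arabidopsis, had 3.93, 2.8 and 2.2 CPM in C root, against 3.62, 23.2 and 12.9 CPM in C shoot (log2FC = -2.15, adjusted p = 0.028), where C shoot replicate 1 lay within the range of the root libraries. Without C shoot replicate 1, 1 homeodomain gene was called higher in C root. Of 18 NAC genes, 7 were higher in C root (38.9%), 1 was higher in C shoot (5.56%) and 10 were not called. The count for C shoot was 2 under DESeq2, without a filter on low counts or with the replicate number as a factor. Of all tested genes, 26.8% were higher in C root and 29.3% in C shoot. In WD vines 1 NAC gene was called higher in root and 4 in shoot. The 2 NAC genes called in both comparisons kept their direction. The listed NAC genes had been selected for a difference between WD and C, so a shift between C and WD vines is not independent of that choice. NAC domain-containing protein 87 (VIT_08s0007g07640) had 32.7, 42.4 and 23.1 CPM in C root, against 2.24, 3.37 and 1.31 CPM in C shoot (log2FC = 3.82), and NAC domain containing protein 2 (VIT_19s0014g03300) had 0.0504, 0.355 and 0.0612 CPM in C root, against 1.43, 2.77 and 2.15 CPM in C shoot (log2FC = -3.64).

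Of 28 MYB genes, 8 were higher in each organ (28.6%). This was near the 26.8% and 29.3% of all tested genes, and nothing is read from it about the list. MYB113 (VIT_14s0006g01290), an anthocyanin regulator in Arabidopsis, had no read in C root and 16.4, 13.2 and 12.9 CPM in C shoot, at least 90.8-fold lower in C root. MYB94 (VIT_17s0000g06190), a regulator of cuticular wax in Arabidopsis, had 2 reads in C root and 70.4, 46.7 and 37.99 CPM in C shoot (ratio 1488, 412 to 12290), on the same side as the wax genes above. On the root side were MYB12 (VIT_13s0084g00530), a flavonol regulator in Arabidopsis, with 2.92, 2.35 and 6.91 CPM in C root and no read in C shoot (at least 32.5-fold higher), and MYB14 (VIT_05s0049g01020), known in grapevine as a regulator of stilbene synthesis, with 17.7, 23.9 and 6.36 CPM in C root, against 1.09, 1.09 and 1.1 CPM in C shoot (log2FC = 3.87). WRKY genes were 3 higher in C root (27.3%) and 4 higher in C shoot (36.4%) of 11, beside 26.8% and 29.3% of all tested genes. Upper-quartile scaling called 5 higher in C root. The genes annotated as WRKY75 were opposed: VIT_01s0010g03930 had 35.7, 63.8 and 23.2 CPM in C root, against 0.285, 1.54 and 0.718 CPM in C shoot (log2FC = 5.54, SE = 0.66, adjusted p = 0.000711), whereas VIT_17s0000g01280 had 2.12, 0.178 and 0.55 CPM in C root, against 2.95, 26.2 and 3.55 CPM in C shoot (log2FC = -3.52, adjusted p = 0.0409). The last difference rested on few libraries: its log2FC was -1.78 with an adjusted p of 0.128 without C shoot replicate 2, and the call was also lost without C root replicate 2 or C root replicate 3, at log2FCs of -3.01 and -3.27.

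Of 40 genes for flavonoids, which are flavonols, anthocyanins and tannins, 17 were higher in C root (42.5%), 12 higher in C shoot (30.0%) and 11 not called. Of all annotated genes, 29.8% were higher in C root and 36.1% in C shoot. A flavanone 3-hydroxylase (VIT_07s0005g03150) had 14.97, 27.98 and 7.52 CPM in C root and no read in C shoot, at least 135-fold higher in C root, and an anthocyanin malonyltransferase (VIT_12s0134g00640) had 29.5, 19.3 and 5.75 CPM in C root, against 0.285, 0.175 and 0.0422 CPM in C shoot (log2FC = 6.74). Leucoanthocyanidin reductase 1 (VIT_01s0011g02960), a step to the monomers of tannins, had 197, 173 and 242 CPM in C root, against 19.9, 93.7 and 32.2 CPM in C shoot (log2FC = 2.07). Shoot held the higher level of a chalcone isomerase (VIT_14s0066g00400), an early step, with 0.302, 0.0888 and 0 CPM in C root, against 11.4, 21.6 and 15.5 CPM in C shoot (log2FC = -6.84), and of an anthocyanidin 3-O-glucosyltransferase (VIT_12s0034g00080), with 1.46, 1.69 and 0.489 CPM in C root, against 25.3, 18.9 and 21.9 CPM in C shoot (log2FC = -4.15). A flavonoid 3',5'-hydroxylase (VIT_06s0009g03010), which sets the hydroxylation of anthocyanins, had 0.151, 0.578 and 0.0612 CPM in C root, against 10.9, 8.56 and 4.01 CPM in C shoot (log2FC = -4.78).

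ABA genes carry the drought signal in both organs, and several of them were measured by PCR in the study. Of 29 tested genes of ABA metabolism and signaling, 5 were higher in C root and 12 were higher in C shoot, beside 29.8% and 36.1% of the annotated genes, with a median log2FC of -0.74. The gene ABA1 (VIT_07s0031g00620), zeaxanthin epoxidase at an early step, had 21.9, 30.03 and 17 CPM in C root, against 416, 168 and 228 CPM in C shoot (log2FC = -3.56, SE = 0.41, adjusted p = 0.000611). NCED3 (VIT_19s0093g00550), which cleaves carotenoids at the committed step, had 10.4, 19.5 and 6.54 CPM in C root, against 241, 45.9 and 20.9 CPM in C shoot (log2FC = -3.07, SE = 0.96, adjusted p = 0.0317), with replicate 1 far above the other shoot libraries. Its log2FC was -1.46 with an adjusted p of 0.059 without C shoot replicate 1, and the call was also lost without any 1 of the C root libraries, with log2FCs between -3.59 and -2.78. Another 9-cis-epoxycarotenoid dioxygenase (VIT_02s0087g00910) was separated more firmly, with 0.101, 0.4 and 0.306 CPM in C root, against 39.3, 27.01 and 45.8 CPM in C shoot (log2FC = -7.08, SE = 0.44, adjusted p = 8.39e-05). ABA3 (VIT_19s0027g01090), named a molybdenum cofactor sulfurase in the study, had 12.7, 15.1 and 9.36 CPM in C root and 15.2, 13.01 and 13.9 CPM in C shoot and was not called (log2FC = -0.18, adjusted p = 0.504).

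ABA breakdown was divided by gene. A CYP707A1 gene on chromosome 2 (VIT_02s0087g00710), named CYP707A3 in the PCR set of the study, had 51.5, 60.2 and 136 CPM in C root, against 25.1, 10.9 and 12.2 CPM in C shoot (log2FC = 2.36, SE = 0.50, adjusted p = 0.00688), whereas a CYP707A1 gene on chromosome 3 (VIT_03s0063g00380) had 1.26, 1.07 and 0.122 CPM in C root, against 15.3, 16.2 and 11.02 CPM in C shoot (log2FC = -4.07, SE = 0.61, adjusted p = 0.00176). Of the receptors, 3 genes were higher in C root: PYL1 (VIT_02s0012g01270) by a log2FC of 1.64, and the genes annotated as PYL4 by 2.17 (VIT_08s0058g00470) and 4.14 (VIT_13s0067g01940). Phosphatases that hold the pathway off were higher in C shoot. ABI1 (VIT_11s0016g03180) had 12.2, 19.6 and 12.8 CPM in C root, against 120.5, 114 and 96.4 CPM in C shoot (log2FC = -2.89, SE = 0.23, adjusted p = 0.000169), PP2CA (VIT_13s0019g02200) had 40.5, 51.2 and 36.9 CPM in C root, against 138, 109.9 and 80.8 CPM in C shoot (log2FC = -1.35), and HAB1 (VIT_09s0002g01850) had a log2FC of -1.21. The receptor gene annotated as PYL8 (VIT_16s0050g02620), which the study's text names PYL6, and the kinase OST1 (VIT_03s0063g01080) were not called, with log2FCs of -0.09 and -0.42. The PCR gene UGT73B3 (VIT_03s0063g00040), a glucosyltransferase, had 0, 2 and 0 reads in C root and 0, 1 and 1 reads in C shoot, too few to test. The PCR reference gene eIF4A (VIT_09s0002g01760), a translation factor, had 620.0, 560.4 and 693 CPM in C root and 436, 535 and 651 CPM in C shoot and was not called (log2FC = 0.21, adjusted p = 0.414).

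Of 34 cytokinin genes, 9 were higher in C root (26.5%), 8 higher in C shoot (23.5%) and 17 not called. The shares of all tested genes were 26.8% and 29.3%, and nothing is read from these counts about the list. An isopentenyltransferase (VIT_05s0020g02630), the first step of cytokinin synthesis, had 3.78, 1.47 and 1.41 CPM in C root, against 0.143, 0.0351 and 0.0422 CPM in C shoot (log2FC = 4.89, SE = 0.71, adjusted p = 0.0015), and a LOG gene (VIT_18s0001g00210), which releases the active hormone, was higher in C shoot (log2FC = -1.90). The type-A response regulator ARR9 (VIT_13s0067g03510) had 23.3, 14.5 and 20.7 CPM in C root, against 3, 3.4 and 1.65 CPM in C shoot (log2FC = 2.86). The pseudo-response regulator 2 (VIT_02s0012g00570) had 1.97, 2 and 2.32 CPM in C root, against 284, 227 and 206 CPM in C shoot (log2FC = -6.83, SE = 0.21, adjusted p = 3.1e-05), and the cytokinin-repressed protein CR9 (VIT_01s0244g00170) had 0.252, 0.0888 and 0 CPM in C root, against 54.4, 61.9 and 98.1 CPM in C shoot (log2FC = -9.17).

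Of 32 auxin genes, 11 were higher in C root (34.4%) and 12 higher in C shoot (37.5%). These shares were near the 29.8% and 36.1% of all annotated genes, and nothing is read from them about the list. A GH3 gene (VIT_12s0134g00230), which ties auxin to amino acids, had 9.98, 6.62 and 15.7 CPM in C root, against 0.0952, 0.737 and 0.0844 CPM in C shoot (log2FC = 5.03, SE = 0.79, adjusted p = 0.00207), and AIR12 (VIT_12s0057g00420), a membrane protein first found in auxin-treated roots of Arabidopsis, had 184, 280.0 and 150.2 CPM in C root, against 12.8, 19.8 and 10.9 CPM in C shoot (log2FC = 3.82). In shoot, ABP19a (VIT_11s0016g01220), annotated as an auxin-binding protein, had 8.32, 7.55 and 12.2 CPM in C root, against 3729, 721 and 1792 CPM in C shoot (log2FC = -7.80, SE = 0.76, adjusted p = 0.000323), and SAUR29 (VIT_15s0048g02860), of a family that responds early to auxin, had 1.21, 1.29 and 1.28 CPM in C root, against 48.6, 36.3 and 45.1 CPM in C shoot (log2FC = -5.10). Gibberellin genes numbered 4 of 8 higher in C root (50%) and 2 higher in C shoot (25%), beside 26.8% and 29.3% of all tested genes. The secreted peptides GASA1 (VIT_18s0001g14270) and Snakin-1 (VIT_07s0129g00580) were on the root side, GASA1 with 247, 215 and 130.4 CPM in C root, against 18.8, 15.5 and 9.75 CPM in C shoot (log2FC = 3.75, SE = 0.35, adjusted p = 0.000287) and Snakin-1 with 103, 111 and 215 CPM in C root and 3 reads in C shoot (ratio 3354, 1147 to 16270). The DELLA protein RGL1 (VIT_14s0006g00640), which restrains gibberellin responses, had 75.8, 90.3 and 64.3 CPM in C root, against 273, 270.4 and 271 CPM in C shoot (log2FC = -1.82).

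Cell wall enzymes made up the largest list. Of 85 tested genes, 29 were higher in C root (34.1%), 26 were higher in C shoot (30.6%) and 30 were not called, with a median log2FC of 0.17. These shares were near those of all tested genes and of all annotated genes, and nothing is read from them about the list. XTH-21 (VIT_10s0003g02480), which cuts and rejoins xyloglucan, had 108, 80.4 and 97.6 CPM in C root and no read in C shoot, at least 764-fold higher in C root (adjusted p = 6.75e-05). Another xyloglucan endotransglucosylase (VIT_00s0386g00050) had 1.36, 0.178 and 0.306 CPM in C root, against 432, 751 and 454 CPM in C shoot (log2FC = -9.78, SE = 0.75, adjusted p = 0.000151). Expansin7 (VIT_02s0025g04700), which loosens walls and belongs to root hairs in Arabidopsis, had 5.59, 7.02 and 2.57 CPM in C root, against 0.0476, 0.0702 and 0.0422 CPM in C shoot (log2FC = 6.40), and alpha-expansin 3 (VIT_17s0000g06360) was higher in C shoot (log2FC = -3.27). CSLD2 (VIT_02s0012g02190), a cellulose synthase-like protein of tip-growing cells, had 62.1, 75.1 and 52.97 CPM in C root, against 5.38, 2.38 and 1.48 CPM in C shoot (log2FC = 4.37), and CESA3 (VIT_07s0005g02470), a cellulose synthase of primary walls, was higher in C shoot (log2FC = -2.83). A pectin methylesterase inhibitor (VIT_16s0022g00830), which keeps pectin methylated, had no read in C root and 16.1, 6.8 and 18.3 CPM in C shoot, at least 88.1-fold lower in C root. Its neighbours VIT_16s0022g00840 and VIT_16s0022g00860 also had no read in C root, with bounds of 57.6-fold and 53.1-fold.

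Histones, made mainly in dividing cells, were mostly not called. Of 11 tested genes 0 were higher in C root, 2 were higher in C shoot (18.2%) and 9 were not called. The shares of all tested genes were 26.8% higher in C root and 29.3% higher in C shoot. The log2FCs of the uncalled histones were between -0.81 and 0.33. A histone H1 (VIT_04s0023g03130), a linker histone, had 3.43, 8.08 and 1.16 CPM in C root, against 94.2, 158 and 162 CPM in C shoot (log2FC = -5.01, SE = 0.68, adjusted p = 0.00116). A histone H3 (VIT_18s0072g00800) had 28.6, 26.4 and 35.7 CPM in C root, against 42.1, 43.04 and 75.2 CPM in C shoot (log2FC = -0.82), a call that was lost without C root replicate 1, C root replicate 2 or C shoot replicate 3, at log2FCs of -0.75, -0.73 and -0.50, and with upper-quartile or total count scaling, which left 1 histone called. With the replicate number as a factor, 4 histones were called higher in C shoot, and in WD vines 0 of the 11 were called in either direction (median log2FC 0.13).

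Defence-type genes had a higher summed level in root, mainly through 1 gene, PR10, so the sums do not describe the list as a whole. Of 16 tested pathogenesis-related genes 9 were higher in C root (56.25%) and 6 in C shoot (37.5%), beside 26.8% and 29.3% of all tested genes. The list summed to 6604, 7200 and 4102 CPM in C root, against 714.8, 1066 and 614.2 CPM in C shoot. Most of the root sum came from PR10 (VIT_05s0077g01580), a small intracellular protein induced by pathogens, which had 6065, 6723 and 3545 CPM in C root, against 86.3, 497 and 159 CPM in C shoot (log2FC = 4.46, SE = 0.74, adjusted p = 0.00267) and for which shoot replicate 2 was the highest of its group. A bulb chitinase (VIT_06s0004g03750), which degrades chitin, had 8.92, 52.4 and 18.2 CPM in C root and no read in C shoot, at least 212-fold higher in C root. A PR1 precursor (VIT_11s0052g01650) was on the shoot side with 39.5, 54.01 and 26.1 CPM in C root, against 431, 143 and 185 CPM in C shoot (log2FC = -2.67). Germin-like and nodulin-like proteins are secreted or membrane proteins of several roles. Of 21 tested genes, 13 were higher in C root (61.9%) and 3 in C shoot (14.3%). Of the 23 listed genes, 17 were found in the root table alone, where 43.0% of genes were higher in C root and 27.8% in C shoot. Neighbouring germin-like genes on chromosome 10 had no read in C shoot: VIT_10s0003g05250 had 27.2, 43.8 and 23.5 CPM in C root and VIT_10s0003g05260 had 45.9, 208 and 91.4 CPM in C root, at least 252-fold and 921-fold higher. Shoot held the higher level of a nodulin MtN21 family gene (VIT_01s0026g00360), with 0.252, 0.533 and 0.428 CPM in C root, against 31.2, 24.9 and 20.6 CPM in C shoot (log2FC = -5.96).

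The annotation held named 2 aquaporins, and others may be among the unannotated genes tested. PIP2;4 (VIT_08s0040g01890), a water channel of the plasma membrane, had 152, 114 and 156 CPM in C root, against 190.0, 435 and 221 CPM in C shoot (log2FC = -1.01, adjusted p = 0.0402). This was a weak difference: the adjusted p was 0.0584 and the log2FC -0.56 without C shoot replicate 2, which had the highest level, the call was also lost without any 1 of the C root libraries (log2FCs between -1.08 and -0.87), and upper-quartile or total count scaling did not call it. The other aquaporin that could be recognised from the annotation held, NIP1;2 (VIT_14s0108g00700), had 90.5, 121 and 43.4 CPM in C root, against 49.5, 27.01 and 24.1 CPM in C shoot (log2FC = 1.34, adjusted p = 0.0365). Its groups overlapped, as C root replicate 3 lay below C shoot replicate 1, and its call was lost without C root replicate 1 or 2, without C shoot replicate 2 or 3, and with all 12 libraries in 1 model.

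Genes with the same annotation could be opposed on a short stretch of chromosome, as for RD22. RD22 is a dehydration-responsive secreted protein of the BURP family, known from Arabidopsis. Of 7 genes so annotated, 5 were tested, all within 188.8 kb of chromosome 4. The first, VIT_04s0008g03930 (chr4:3274442-3276127), had no read in any C root library and 784, 967 and 741 CPM in C shoot, at least 5324-fold lower in C root (adjusted p = 5.5e-05). The other 4 lay on the root side. VIT_04s0008g04120 (chr4:3451690-3463259) had 758, 1421 and 451 CPM in C root and VIT_04s0008g04090 (chr4:3435406-3438863) had 470.3, 837 and 239 CPM in C root, both with no read in C shoot, at least 7018-fold and 4128-fold higher in C root. VIT_04s0008g04060 (chr4:3391757-3393275) had 1059, 809 and 1411 CPM in C root, against 34.7, 11.9 and 1.52 CPM in C shoot (log2FC = 6.09, SE = 1.10, adjusted p = 0.00365) and VIT_04s0008g04040 (chr4:3376312-3377203) had 89.9, 65.5 and 127 CPM in C root, against 4.47, 0.947 and 0.0422 CPM in C shoot (log2FC = 5.72). C root replicate 2 was the highest root library for VIT_04s0008g04120 and VIT_04s0008g04090 and C root replicate 3 for VIT_04s0008g04060 and VIT_04s0008g04040.

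**Figure D4:**
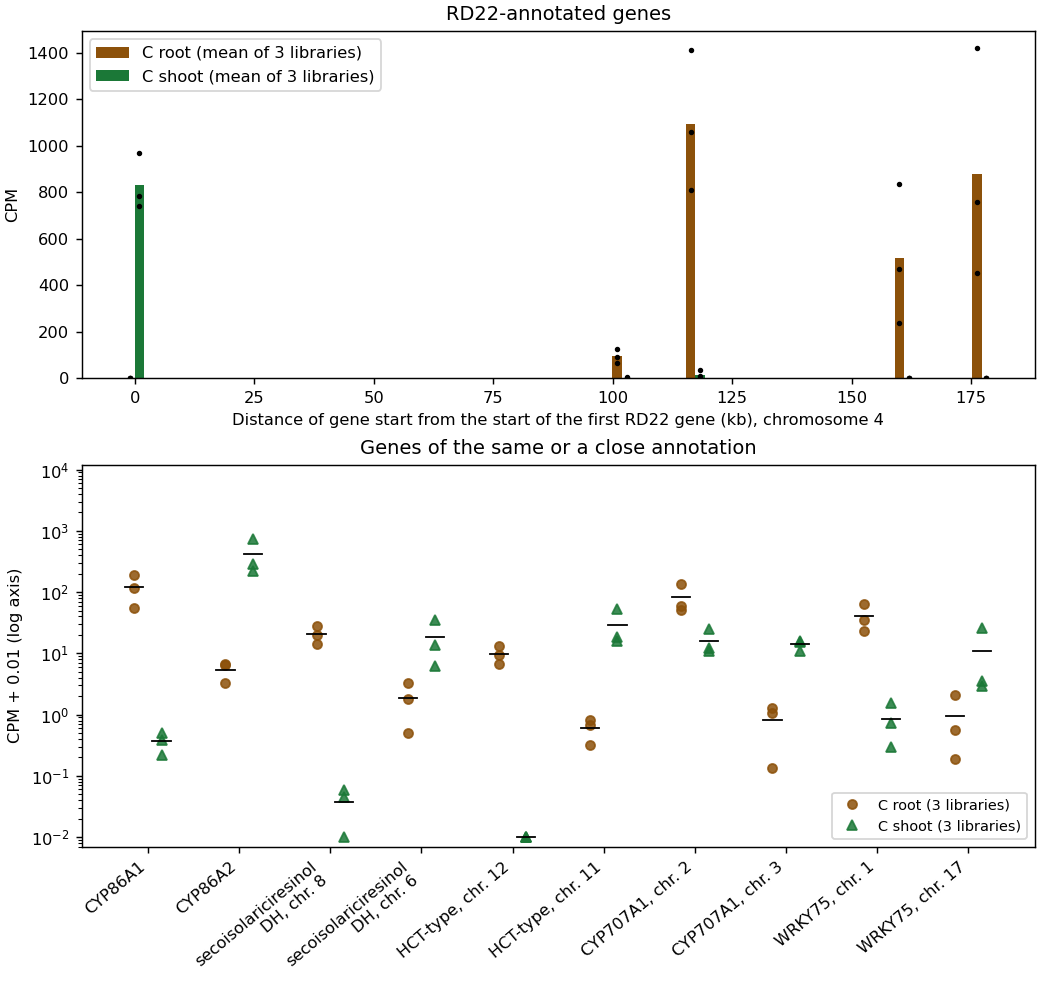
Upper panel, mean CPM in 3 C root libraries (brown bars) and 3 C shoot libraries (green bars) of the 5 tested RD22 genes against the distance of each gene's start from that of the first, with single libraries as black points. Lower panel, CPM with 0.01 added on a log axis for pairs of genes of the same or a close annotation, with C root as brown circles and C shoot as green triangles and means as black lines. The first RD22 gene is expressed in shoot and the other 4 in root, and each pair in the lower panel has its higher level in opposite organs.

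Some genes were restricted to an organ, taken as at most 3 counts in every library of the other organ and at least 10 CPM in every library of its own. Of the tested genes, 132 were restricted to root (0.643%) and 165 to shoot (0.803%), and 61 and 77 of them had no read at all in the other organ. Their mean levels had a median of 36.8 CPM in root and 51.6 CPM in shoot and reached 2511 and 2306 CPM. A function was given for 29 of the genes restricted to root and for 22 of those restricted to shoot. Root examples beyond those above were a beta-carotene 15,15'-monooxygenase (VIT_04s0008g03480), a carotenoid-cleaving enzyme, with 104, 166 and 66.2 CPM in C root, the cytochrome P450 CYP87A3 (VIT_16s0100g00600) with 53.1, 46.1 and 60.5 CPM in C root, and a diphenol oxidase (VIT_18s0122g00170), an enzyme that oxidises phenolics, with 77.3, 75.9 and 151 CPM in C root, none of which had a read in C shoot. They were at least 897-fold, 426-fold and 811-fold higher in C root. Shoot examples were a lipoxygenase annotated LOX2 (VIT_06s0004g01450), an entry enzyme of jasmonate synthesis, with 117, 27.8 and 84.98 CPM in C shoot, and GATA transcription factor 24 (VIT_11s0016g02210) with 83.4, 21.8 and 60.5 CPM in C shoot, at least 491-fold and 354-fold lower in C root. UNE10 (VIT_15s0021g02690), a helix-loop-helix protein named for embryo sacs that failed to be fertilized, had 1 read in C root and 212, 75.6 and 104 CPM in C shoot (ratio 7274, 1305 to 287300).

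Some of the widest differences lay in genes without annotation. VIT_02s0154g00290 on chromosome 2 had 2668, 1944 and 2921 CPM in C root and 1 read in all of C shoot (ratio 180200, 32340 to 7116000 root over shoot), and VIT_09s0002g05340 on chromosome 9 had 259, 617 and 108 CPM in C root and no read in C shoot, at least 2628-fold higher in C root. VIT_01s0010g03620 on chromosome 1 had 3154, 1390 and 2375 CPM in C shoot and VIT_19s0014g00160 on chromosome 19 had 2663, 1419 and 2618 CPM in C shoot, both with no read in C root, at least 14780-fold and 14320-fold lower in C root. These 4 genes were at high levels in every library of 1 organ and at or near 0 in every library of the other.

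Levels can be compared between genes per length, as RPKM. Among annotated genes called higher in C root, the highest median level was that of PR10 (VIT_05s0077g01580), with 6602, 7603 and 3859 RPKM in C root and 79.6, 547.6 and 172.3 RPKM in C shoot. It was followed by a small nuclear ribonucleoprotein Sm D3 (VIT_02s0154g00300), a splicing factor, with a median of 2090 RPKM in C root and 151.6 RPKM in C shoot, by the RD22 gene VIT_04s0008g04060 with 801.7 and 9.11 RPKM in those organs, by an aspartic proteinase (VIT_18s0001g07340) with 651.1 and 122.2 RPKM, and by the arabinogalactan protein FLA2 (VIT_12s0057g01020) with 435.6 and 268.1 RPKM. FLA2, a cell surface protein, had 730.2, 689.9 and 732 CPM in C root, against 474, 536 and 466 CPM in C shoot (log2FC = 0.54), and its call was lost without C root replicate 1 or C shoot replicate 3, at log2FCs of 0.56 and 0.50, with the replicate number as a factor (adjusted p = 0.0711) and with all 12 libraries in 1 model (adjusted p = 0.509). Among annotated genes called higher in C shoot the first was ASR2 (VIT_18s0072g00380), a small protein tied to ABA, stress and ripening, with 107.0, 104.5 and 91.4 RPKM in C root and 2565, 4784 and 4361 RPKM in C shoot. LHB1B1 followed with a median of 1.56 RPKM in C root and 3172 RPKM in C shoot, then ABP19a with 12.1 and 2490 RPKM, the xyloglucan enzyme VIT_00s0386g00050 with 1.32 and 1493 RPKM, and PSAF with 2.40 and 1087 RPKM. ASR2 was the single gene of these shoot genes with a level above 100 RPKM in any root library, and it was still separated from shoot without overlap (log2FC = -5.50, SE = 0.31, adjusted p = 6.2e-05).

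Some successive genes on a chromosome were called in the same direction. Among tested genes in chromosomal order, 2256 genes higher in C root and 2326 higher in C shoot had no direct neighbour called in the same direction. There were 78 runs of 5 or more genes higher in C root, with 506 genes, and 78 runs of 5 or more genes higher in C shoot, with 472 genes. The longest was on chromosome 16 (chr16:16197748-16711898, the coordinates of the authors' tables for PN40024), where 36 successive tested genes in 514.2 kb were all higher in C root. Their log2FCs were between 0.65 and 10.92 with a median of 7.87, and they summed to 3920, 6251 and 3406 CPM in C root, against 31.3, 70.4 and 30.5 CPM in C shoot. Of these genes 0 had an annotation in the sources used here. The longest run of genes higher in C shoot was on chromosome 3 (chr3:858885-956506), with 22 genes in 97.6 kb and a median log2FC of -6.50. They summed to 22.9, 17.1 and 23.1 CPM in C root, against 312.4, 403.5 and 449.6 CPM in C shoot. Their mean C shoot levels had a median of 7.10 CPM. Of the 22 genes, 9 had no read in any C root library, and their fitted log2FCs are not measured folds. The order of the libraries within an organ differed between these runs, since C shoot replicate 2 was highest of the shoot libraries on chromosome 16 and C shoot replicate 3 on chromosome 3. A run of 15 root genes on chromosome 10 (chr10:4083509-4437358) contained XTH-21 and SRG1 (VIT_10s0003g02350), annotated as an oxidoreductase of senescence, with 3.38, 4.44 and 2.08 CPM in C root and no read in C shoot. Genes of such runs can be copies of each other, so the runs are a description of position and no count of independent events.

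**Figure D5:**
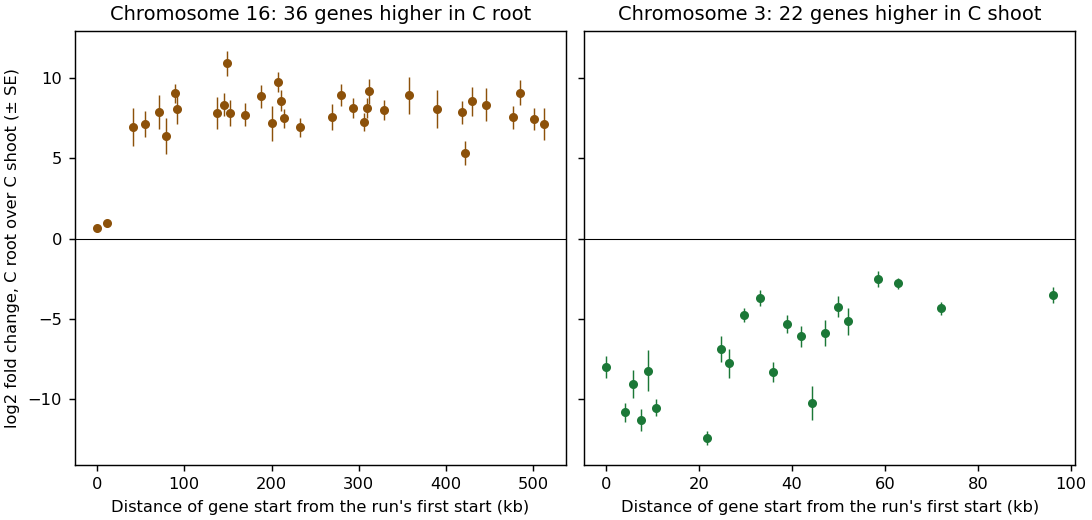
Log2 fold change of C root over C shoot, with its SE, for the 36 genes of the longest run higher in C root (left, chromosome 16) and the 22 genes of the longest run higher in C shoot (right, chromosome 3), against the distance of each gene's start from the first gene of the run in kb. Most genes on the left lie above 5 and those on the right between -2.52 and -12.44. On the right 9 genes, among them the lowest, and on the left 1 gene had no read in the other organ, so their fitted values are not measured folds.

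The same organ comparison in WD vines, which uses no C library, called 10499 of 20227 tested genes (51.9%). WD root had the higher level for 5216 (25.8%) and WD shoot for 5283 (26.1%). Of the 11521 genes called in C vines, 11064 were tested in WD vines, 10371 had the same sign (93.7%) and 8026 were called in the same direction, which is 72.5% of those tested and 76.4% of the WD calls. In opposite directions 51 genes were called. The list counts were close for the groups with the widest separation, as all 13 nuclear-type photosynthesis genes were higher in WD shoot and 15 peroxidases were higher in WD root. Of the genes restricted to an organ in C vines, 77 of 132 for root and 85 of 165 for shoot met the same rule in WD vines, and 116 and 118 stayed at the floor in the other organ. In the run on chromosome 16, 35 of 36 genes were called higher in WD root. In the run on chromosome 3, 11 of the 22 genes were tested in WD vines. Of these, 9 were called higher in WD shoot, and the median log2FC was -4.17. The RD22 genes kept their sides, with a log2FC of -19.11 for VIT_04s0008g03930 and 5.66 for VIT_04s0008g04060. Of the listed NAC genes, 1 was higher in WD root and 4 in WD shoot, and both PIP2;4 (VIT_08s0040g01890) and the CYP707A1 gene on chromosome 2 (VIT_02s0087g00710) were called in the opposite direction, with log2FCs of 1.96 and -1.01.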

How the data were processed

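Total RNA of root tips and shoot tips was sequenced as single-end reads. The authors aligned the reads with TopHat2 2.0.8 and Bowtie2 2.1.0 to the V. vinifera PN40024 genome (versions from the submitters' processing notes) and deposited raw counts per gene model for each organ, not normalized. RPKM values of each library, made by the authors with Cufflinks, were deposited beside the counts. Cuffdiff tables of WD against C, which hold group values, fold changes and p-values, were not used. The count tables for root and shoot were joined by gene identifier (29966 genes), and 5 lines per table that name no gene were left out, which left 70.7 to 72.0% of the reads in C root and 75.1 to 76.5% in C shoot.

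Genes were kept with filterByExpr, scaled by TMM over the 6 C libraries and compared with edgeR 4.0.16 (R 4.3.3) by the quasi-likelihood test with robust dispersions, two-sided, with Benjamini-Hochberg adjustment over all tested genes and a threshold of 0.05. The SE is the absolute log2FC over the square root of F. A fold against an organ at 0 is a bound with 3 counts per library, and ratios with 1 to 3 counts have 95% counting intervals, which cover counting error only. WD libraries were fitted alone in the same way. DESeq2 1.42.0, limma 3.58.1 on log2 RPKM with 1 or 0.1 added, other scalings and filters, thinned counts, the replicate number and each library left out were the alternatives. Replicates differed by far more than sampling noise. The code was tested on simulated data. The identifiers were not in the reference table, so annotation came from the study's tables of genes that differ between WD and C, in part for shoot.

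Genes were named by rule. From genes called, without overlap of the organs, at 10 CPM or more in the higher organ and annotated came the 12 largest log2FCs in each direction. From these genes also came the 2 largest in each direction of each of 26 lists. The 2 unannotated identifiers a direction met the same conditions apart from annotation. The 5 annotated genes of highest RPKM in each organ, the PCR genes and members of annotated runs were named without a condition on call, overlap or CPM. Other list members are given as examples, chosen after their values were seen. The comparison, members and lists were chosen with earlier results of these data known.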

Additional observations from a re-analysis of the deposited data

Results flagged for a closer look

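The organ difference in C vines was set against that in WD vines by an interaction term over all 12 libraries, a test added after the data had been seen. It called 129 of 21267 genes (0.607%). Among the genes named here, 4 stood out, and they belong to genes that the study selected for a difference between WD and C, so they were not chosen independently of this term. Each value is the log2FC of C root over C shoot minus that of WD root over WD shoot.

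The CYP707A1 gene on chromosome 2 (VIT_02s0087g00710), which inactivates ABA, had an interaction of 3.37 (SE 0.55, adjusted p = 0.0488), with a log2FC of 2.36 in C vines and -1.01 in WD vines. PIP2;4 (VIT_08s0040g01890) had an interaction of -2.96 (SE 0.59, adjusted p = 0.0527), which missed the threshold, and it is given because every C root library was below every C shoot library whereas every WD root library was above every WD shoot library. GASA1 (VIT_18s0001g14270) had an interaction of 2.66 (SE 0.48, adjusted p = 0.0494), with a higher level in root in both, by 3.75 in C vines and 1.09 in WD vines. POR (VIT_19s0014g03160) had an interaction of -3.55 (SE 0.67, adjusted p = 0.0494), with a higher level in shoot in both, at -10.68 in C vines and -7.13 in WD vines.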

How the results depend on the processing

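The number of genes called between C root and C shoot stayed within 1.5 times 11521 under every alternative tried, between 8223 with at least a 2-fold change and 12494 with DESeq2, and between 9240 and 11048 with each library left out. With the replicate number as a block it was 10645, but the numbers are not known to pair the samples: deviations of same-numbered root and shoot libraries correlated at 0.0051, -0.000079 and 0.20, and not every library was closest to its own number. The listed genes gave 365 calls with the block. The share of calls higher in C root was 47.7% and reached 54.2% with upper-quartile scaling, under which the median log2FC of all genes was 0.12. The number of restricted genes depended on its limits. For root it was 87 with at most 1 count and 199 with at most 10 counts in the other organ, and 449 with at least 1 CPM and 9 with at least 100 CPM in its own. For shoot it was 262 with at most 10 counts, 463 with at least 1 CPM and 38 with at least 100 CPM. Leaving out a library gave 140 to 189 for root and 167 to 202 for shoot. Of 120 called genes picked by the naming rule, 107 kept their call under all 16 alternatives apart from the 2-fold limit, 12 lost it without some library and 0 changed sign. Most of these genes were picked for large differences without overlap, so the count is not the stability of every gene given here. Members given as examples, such as NIP1;2, were not counted. The sign of ABA3 (VIT_19s0027g01090), which was not called, turned to 0.041 and 0.22 with limma on log2(RPKM + 1) and log2(RPKM + 0.1). In WD vines the calls were 11579 with DESeq2, 11027 with the block and 7768 to 11175 with each library left out, the last added after the data had been seen. Extraction method cannot be told apart from organ, the part of the alignment to another species and of the uncounted repeated reads was not tested, and annotation was held for 2738 of the tested genes alone.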

Other observations

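Laccases, copper enzymes that oxidise lignin monomers, were not among the lists and were chosen after their values were seen. Of 10 tested genes so annotated, 9 were higher in C root and 0 were higher in C shoot, beside 26.8% and 29.3% of all tested genes. A count picked in this way is no test of the family. VIT_18s0001g02400 had 455, 344 and 799 CPM in C root, against 50.2, 53.4 and 96.9 CPM in C shoot (log2FC = 2.99, edgeR's adjusted p = 0.00134), VIT_18s0122g00690 had 84.4, 121 and 116 CPM in C root, against 0.0476, 0.772 and 0 CPM in C shoot (log2FC = 8.45), and VIT_18s0075g00530 had 9.12, 23.5 and 3.92 CPM in C root and no read in C shoot, at least 97.5-fold higher in C root. The exception, VIT_18s0001g02350, was not called, with 28.9, 20.7 and 43.9 CPM in C root and 22.9, 14.7 and 34.3 CPM in C shoot (log2FC = 0.38). MATE efflux proteins, carriers that export organic compounds, were higher in C root for 5 of 6 genes, up to a log2FC of 4.68 (VIT_08s0007g08200), and higher in C shoot for VIT_06s0004g02140 (log2FC = -3.03). Among all annotated genes, 29.8% were higher in C root and 36.1% in C shoot.

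Genes with the same annotation were called in the same or in opposite directions. Of 207 annotations with 2 or more called genes, 89 (43%) had genes called in both directions, 58 had all their called genes higher in C root and 60 had all higher in C shoot. No share for unrelated genes was computed, and nothing is read from these counts about shared annotations. Near VIT_02s0154g00290 on chromosome 2, 4 neighbours were also higher in C root, among them the Sm D3 gene VIT_02s0154g00300 and a lipid transfer protein (VIT_02s0154g00310) with log2FCs of 3.82 and 3.85.

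The libraries of an organ took uneven shares of the highest and lowest levels of the restricted genes. Of the 132 genes restricted to root, 76 (57.6%) had their highest level in C root replicate 2 and 75 (56.8%) their lowest in C root replicate 3. The same shares were 35.7% and 40.8% of all tested genes, and 37.9% and 41.3% of the genes called higher in C root. Of the 165 genes restricted to shoot, 116 (70.3%) had their highest level in C shoot replicate 1 and 126 (76.4%) their lowest in C shoot replicate 2. The same shares were 41.7% and 32.5% of all tested genes, and 55.1% and 54.2% of the genes called higher in C shoot. In shoot the unevenness was thus not particular to the restricted genes. The cause was not tested.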
